A study of Homo sapiens with 9 samples.

Results

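Mitosis is driven by a wave of gene expression that rises in G2 and peaks as cells divide. Cyclin B and the kinase CDK1 start it, the spindle checkpoint holds it until every chromosome is attached, and the anaphase-promoting complex (APC/C), with CDC20, ends it by marking cyclin B and securin for destruction. The wave is switched on by FOXM1 and the MYB-MuvB complex, which act at a promoter element named CHR, often beside CCAAT boxes. In carcinoma cell lines these genes are used as a readout of how many cells are dividing.

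The 54 genes described here are a list of mitosis and G2/M genes in 8 role groups, taken by symbol from 78894 Ensembl gene identifiers. The rule uses gene names and no measured value, but the list was chosen with earlier results of these data known. All 54 symbols matched 1 identifier, and all 54 passed the filter on low values, 2 or more distinct libraries with a TPM of 1 or above, as did 17100 genes in all. TPM, a transcript abundance corrected for gene length, is a share of the library, so levels can be compared between genes.

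RNA was sequenced from CAL27, an established line of squamous carcinoma of the tongue, as polyA RNA in dUTP libraries. The groups are Control (3 samples) and the CRISPR-edited knockouts A2ko, A8ko and C9ko (2 samples each), with no other treatment. By its title the series is about a tumour-promoting enhancer in squamous carcinoma of the head and neck. The labels name no edited sequence, so no target gene could be measured as a check of the knockouts. They do not state whether knockout cells are clonal or pooled, nor what the Control cells received.

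Both A2ko files held the same values for all 78894 identifiers, and so did both A8ko files. In each pair both column headers name the second library. Each pair therefore counts as 1 library, which leaves 7 distinct libraries: 3 Control, 1 A2ko, 1 A8ko and 2 C9ko. Differences of A2ko and A8ko have no replicate check and get no p-value. Replicates are not stated to be separate cultures, so p-values for C9ko measure the spread between these libraries only. Sequencing depth is unknown, since TPM does not keep it. Of the squamous epithelial markers KRT5, KRT14, KRT17, TP63, EPCAM, CDH1 and SFN, the lowest value in any library was 100.3 TPM, of CDH1, but KRT14 ranged from 3549 to 4286 TPM in Control and reached only 312.9 in A2ko, 866.9 in A8ko and 1283 in C9ko. The leukocyte and endothelial markers PTPRC, CD3E, PECAM1 and VWF stayed under 1 TPM in every library, and the fibroblast marker COL3A1 was listed at 0 in all 7. The fibroblast markers DCN and PDGFRB also stayed under 1 TPM, while COL1A1, COL1A2 and LUM reached 13.4, 2.12 and 2.92. CD14 and CDH5 did not stay low, with up to 17.9 and 4.27 TPM in Control and up to 52.5 and 29.9 in C9ko. The part of these differences in the results was not tested.

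The promoters are shown first because the members are known as a group under shared promoter elements. RefSeq promoter windows on GRCh38.p14, from 250 bases before to 50 bases after a gene's start, were found for 45 of the 54 members. The CHR element was searched as TTTGAA or TTCGAA and the CCAAT box as CCAAT, each on both strands. TTCGAA reads the same on both, and the 2 motifs were searched separately, so matches may share a letter. CHR letters stood in a window of 35 of the 45 members (77.8%) and of 19.5% of all 27305 genes with a window. CCAAT stood in 36 of the 45 (80.0%) and in 39.7% of all genes. Both motifs, in the same or in different windows of a gene, stood in 29 (64.4%) and in 9.02%. A match is a description of letters, not a shown binding site. The 3 members of highest Control level with both motifs in the 250 bases before the start are printed 5′ to 3′, with CHR and CCAAT letters of either strand in capitals. CDC25B has 4 windows, of which the first listed with both motifs is printed.
CDC20, chr1:43358731-43358980, plus strand: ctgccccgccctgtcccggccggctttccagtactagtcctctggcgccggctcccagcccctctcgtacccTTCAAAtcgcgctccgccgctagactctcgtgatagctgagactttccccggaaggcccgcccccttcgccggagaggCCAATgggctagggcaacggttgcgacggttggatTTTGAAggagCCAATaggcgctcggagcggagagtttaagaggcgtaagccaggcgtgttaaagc
CDC25B, chr20:3796060-3796309, plus strand: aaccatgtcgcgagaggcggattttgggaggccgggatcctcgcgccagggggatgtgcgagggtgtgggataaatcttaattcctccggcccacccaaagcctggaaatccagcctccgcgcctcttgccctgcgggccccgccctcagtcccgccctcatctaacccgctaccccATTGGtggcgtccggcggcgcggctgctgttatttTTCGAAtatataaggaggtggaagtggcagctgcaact
PLK1, chr16:23678639-23678888, plus strand: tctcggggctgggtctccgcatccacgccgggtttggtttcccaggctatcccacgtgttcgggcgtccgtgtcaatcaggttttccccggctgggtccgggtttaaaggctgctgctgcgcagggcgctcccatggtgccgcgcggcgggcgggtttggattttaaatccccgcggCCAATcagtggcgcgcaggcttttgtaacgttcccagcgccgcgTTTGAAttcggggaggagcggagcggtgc
In CDC20 the nearer CHR match began 65 bases before the start, in CDC25B 38 and in PLK1 29. These 3 promoters did not share 1 pattern of values: CDC20 and PLK1 were lower in A2ko and higher in A8ko and C9ko, whereas CDC25B was lower in A2ko and in A8ko. Among the 45 members, the 29 with both motifs had median log2 differences from Control of -0.47, 0.28 and 0.33 for A2ko, A8ko and C9ko, and the 16 others of -0.38, 0.31 and 0.30.

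The mitosis genes lay together on one side of Control, but not on the same side in the 3 knockouts. A2ko lay below the Control mean for 54 of 54 members, C9ko above it for 54 of 54, and A8ko above it for 49. Of all 17100 tested genes, 6349 were below the Control mean in A2ko, 5988 in C9ko and 6504 in A8ko. Most genes were thus not below it in any knockout. After scaling by the median of ratios, SPC25, NUSAP1 and RACGAP1 fell below it in C9ko, and KIF23 joined the lower members in A8ko. The median member difference, on the log2(TPM + 1) scale on which all differences here are given, was -0.44 for A2ko, 0.31 for A8ko and 0.29 for C9ko. The median of all 17100 genes was shifted by 0.12, 0.09 and 0.11 in the same order, so the members of A8ko and C9ko stood nearer to the general shift than those of A2ko. Summed over the 54 members, the level was 4334, 3982 and 4219.9 TPM in Control 1, 2 and 3, with 2838 for A2ko, 5245 for A8ko and 5172 and 5342 for the C9ko libraries. A2ko had the lowest sum and the 3 other knockout libraries the 3 highest, with no overlap with Control. In bulk RNA, fewer cells in mitosis and less of these RNAs in each dividing cell cannot be told apart.

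**Figure D1:**
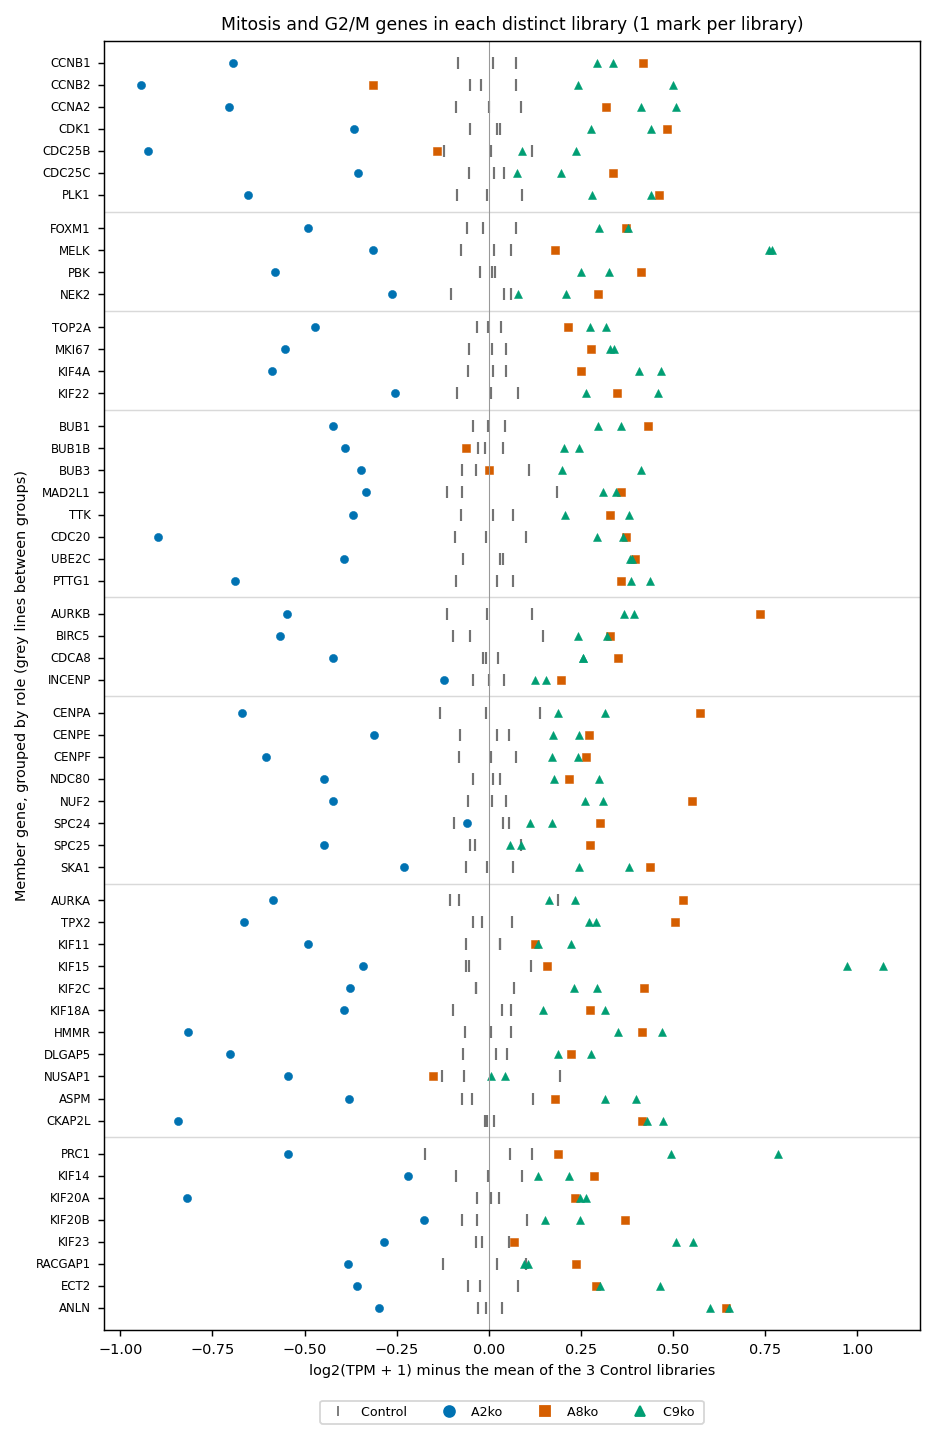
The log2(TPM + 1) value of each of the 54 members in each distinct library, minus the mean of the 3 Control libraries (x axis), by gene and role group (y axis), with 1 mark per library. The A2ko marks all sit below 0, the C9ko marks above it, and the A8ko marks above it except for CCNB2, CDC25B, BUB1B, BUB3 and NUSAP1, before any rescaling.

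Controls also varied together. Each Control library held against the other 2 gave a member median of 0.05, -0.09 and 0.03, with 42 of the 54 members of Control 2 below both others. The share of all genes was not taken for that count. Against the mean of the 3 Control libraries, the member medians were 0.03, -0.06 and 0.02. Those of all tested genes were 0.02, -0.04 and 0.02, so the members moved in the same direction as all genes. The shift of the members between Control libraries was therefore smaller than in any knockout, and 0 members of a held-out Control library were outside the others by at least 0.5 log2 units. Mitochondrial transcripts took 23.1% to 26.9% of the TPM in Control, 25.2% for A2ko, 20.6% for A8ko and 20.2% and 17.9% for the C9ko libraries. That share moves the level of all other genes.

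In A2ko, 53 of the 54 members lay below all 3 Control libraries, where 26.3% of all tested genes did, and 0 lay above them, where 50.4% did. The 1 exception was SPC24, a subunit of the NDC80 kinetochore complex, at 20.8 TPM against 20.3 to 22.6 in Control. By at least 0.5 log2 units, 22 members (40.7%) were lower, against 6.26% of all genes. As deposited the differences ran from -0.94 to -0.06. With median of ratios scaling 35 members were counted, beside 3579 of all genes counted in either direction (3903 as deposited). At any size, 37.9% of all genes then lay below all 3 Control libraries, so the scaling also moved the background. With it, CCNB2 (-1.07), CDC25B (-1.05) and CDC20 (-1.03) passed 1 log2 unit.

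In A8ko, 49 of the 54 members lay above every Control library, where 46.9% of all genes did, and 4 lay below, where 26.4% did. The 4 were CCNB2, CDC25B, BUB1B and NUSAP1. Only 6 members (11.1%) were higher by at least 0.5, a share near the 10.4% of all genes, and 0 were lower by that much, against 8.47%. The count of higher members was 2 with median of ratios scaling and 3 without mitochondrially encoded genes. Beside these, 3068 and 3327 of all genes were counted in either direction.

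C9ko has 2 distinct libraries and was tested with limma. At a Benjamini-Hochberg adjusted p under 0.05 over all genes, 35 of the 54 members (64.8%) were called higher, where 22.0% of all genes were, and 0 were called lower, where 7.42% were. The called members differed by 0.23 to 1.02 log2 units and the 19 others by 0.02 to 0.33. A total of 43 members had an unadjusted limma p under 0.05, a count for which the share of all genes was not taken. Called and at least 0.5 higher were 5 members (9.26%), against 12.2% of all genes. The count depended on the libraries and the scale. It was 25 without Control 2, beside 3833 of all genes called in either direction. With no filter on low values it was 20, beside 3511 genes called in either direction. With median of ratios scaling it was 19, against 15.4% of all genes called higher. Without C9ko 1 or C9ko 2 the member median was 0.31 or 0.28, beside 0.14 or 0.08 for all genes. Among the called members given below with every value, MELK, ANLN and KIF15 kept their call under every alternative run for C9ko.

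**Figure D2:**
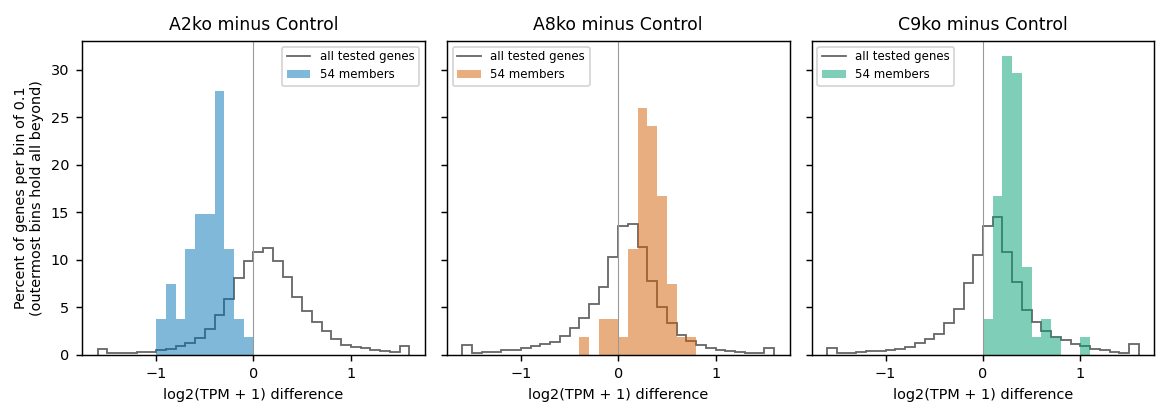
Distribution of log2(TPM + 1) differences from the Control mean (x axis) for all 17100 tested genes (line) and the 54 members (filled), as percent of genes per bin of 0.1 (y axis), in A2ko, A8ko and C9ko. The members sit to the left of all genes in A2ko (median -0.44 against 0.12) and to the right in A8ko (0.31 against 0.09) and C9ko (0.29 against 0.11).

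Compared with one another without the Control libraries, the knockouts also parted. A2ko was below every A8ko and C9ko library for 54 of 54 members, where 34.6% of all genes were, and by at least 0.5 log2 units for 40 (74.1%), where 6.84% were. This difference between knockouts was not tested, since A2ko and A8ko have 1 library each. With each knockout group as 1 value, all 3 together were compared with Control by limma. Here 0 members were called, against 0.509% of all genes higher and 0.520% lower, and the smallest adjusted p of a member was 0.542. At an unadjusted p under 0.05 there were also 0 members, against 12.2% of all genes higher and 3.80% lower. Without A2ko, the same fit called 18 members higher, against 8.08% of all genes. That fit drops the knockout in which all 54 members were lower, and with it spread that counted as error. It is therefore no separate support for a rise in A8ko and C9ko.

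The entry genes set mitosis in motion. CCNB1 (ENSG00000134057, chromosome 5, 69167010 to 69178245), the cyclin whose complex with CDK1 drives entry, stood at 207.4, 185.8 and 198.4 TPM in Control 1, 2 and 3, at 121.3 in A2ko, at 263.7 in A8ko and, in C9ko 1 and 2, at 241.5 and 248.9. Its A2ko value was below and all others above the Control range. The C9ko difference was 0.31 (SE 0.07, limma adjusted p 0.0151). It was 0.18 with median of ratios scaling, and the call was lost with no filter on low values (limma adjusted p 0.0630) and without C9ko 1 or C9ko 2. CCNB2 (ENSG00000157456, chromosome 15, 59105078 to 59125045), its close relative, stood at 136.2, 124.7 and 127.3 TPM in Control, at 66.7 in A2ko, at 103.9 in A8ko and, in C9ko 1 and 2, at 153.1 and 183.2. CCNB2 had the lowest difference of any member in A2ko, -0.94, and in A8ko, -0.31, and was higher in C9ko by 0.37 (SE 0.09, limma adjusted p 0.0223). That call was lost with no filter (limma adjusted p 0.128), without trend (0.0502) and without Control 2, Control 3 or C9ko 2, and the difference was 0.24 with median of ratios scaling. The related cyclins thus lay on opposite sides of Control in A8ko.

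CDC25B (ENSG00000101224, chromosome 20, 3786772 to 3806121), a phosphatase that activates CDK1, stood at 199.9, 169.1 and 185.0 TPM in Control, at 96.7 in A2ko, at 167.0 in A8ko and, in C9ko 1 and 2, at 196.4 and 217.4. Its difference was -0.92 in A2ko and -0.14 in A8ko, and the C9ko libraries overlapped Control (difference 0.16, SE 0.09, limma adjusted p 0.208). The other entry genes were CCNA2 (cyclin A2), CDK1, CDC25C and PLK1, a kinase of entry and spindle assembly. They were lower in A2ko by differences of -0.71, -0.36, -0.35 and -0.65 and at 0.32, 0.48, 0.34 and 0.46 in A8ko. In C9ko, CCNA2 (0.46), CDK1 (0.36) and PLK1 (0.36) were called, and CDC25C at 0.14 was not (limma adjusted p 0.206). The entry group had the lowest A2ko median of the 8 groups, -0.69.

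The regulators of the programme were led in level by FOXM1 and MELK. FOXM1 (ENSG00000111206, chromosome 12, 2857681 to 2877155), the transcription factor that drives G2/M genes, stood at 100.7, 91.8 and 94.6 TPM in Control, at 67.8 in A2ko, at 124.1 in A8ko and, in C9ko 1 and 2, at 117.9 and 124.4. Its RNA followed the members: lowest in A2ko, highest in A8ko and C9ko, with a C9ko difference of 0.34 (SE 0.07, limma adjusted p 0.0104). The difference was 0.21 with median of ratios scaling, and the call was lost without C9ko 2 (limma adjusted p 0.0682). MELK (ENSG00000165304, chromosome 9, 36572862 to 36677683), a kinase abundant in dividing cells, stood at 59.8, 56.2 and 61.8 TPM in Control, at 47.5 in A2ko, at 67.2 in A8ko and, in C9ko 1 and 2, at 101.6 and 101.1. MELK stood out in C9ko, with a rise of 0.76 (SE 0.07, limma adjusted p 0.000294) against 0.18 in A8ko. PBK, another kinase of dividing cells, differed by -0.58, 0.41 and 0.29 in A2ko, A8ko and C9ko, and NEK2, a centrosome kinase, by -0.26, 0.30 and 0.14, of which the C9ko value of NEK2 was not called (limma adjusted p 0.225).

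Genes of chromosome structure pack and separate the chromatids. TOP2A (ENSG00000131747, chromosome 17, 40388516 to 40417950), the topoisomerase that untangles sister chromatids, stood at 113.8, 116.03 and 119.1 TPM in Control, at 83.6 in A2ko, at 135.1 in A8ko and, in C9ko 1 and 2, at 140.9 and 145.1. The groups did not overlap, and the C9ko difference was 0.30 (SE 0.06, limma adjusted p 0.00991). With median of ratios scaling it was 0.16 and not called (limma adjusted p 0.0532), nor was it called without C9ko 2. KIF22 (ENSG00000079616, chromosome 16, 29790719 to 29805385), a motor on chromosome arms, stood at 50.2, 44.6 and 47.6 TPM in Control, at 39.6 in A2ko, at 60.6 in A8ko and, in C9ko 1 and 2, at 65.6 and 57.1. Its C9ko difference was 0.36 (SE 0.09, limma adjusted p 0.0201), a call that was lost with no filter, with median of ratios scaling (0.23), without mitochondrially encoded genes and without Control 2, Control 3 or C9ko 1. KIF22 had a smaller A2ko difference, -0.26, than TOP2A at -0.47. MKI67, the proliferation marker Ki-67 that coats mitotic chromosomes, and the chromokinesin KIF4A differed by -0.55 and -0.59 in A2ko, 0.28 and 0.25 in A8ko, and 0.33 and 0.44 in C9ko, and both were called in C9ko.

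Checkpoint and APC/C genes include the most abundant members. UBE2C (ENSG00000175063, chromosome 20, 45812576 to 45816957), a ubiquitin-conjugating enzyme that works with APC/C, stood at 460.1, 426.9 and 457.7 TPM in Control, at 340.6 in A2ko, at 589.9 in A8ko and, in C9ko 1 and 2, at 586.7 and 584.4. CDC20 (ENSG00000117399, chromosome 1, 43358955 to 43363203), the APC/C activator that the checkpoint restrains, stood at 399.8, 350.1 and 370.8 TPM in Control, at 199.7 in A2ko, at 483.3 in A8ko and, in C9ko 1 and 2, at 457.02 and 480.7. For both, A2ko was lowest and the other knockouts were above Control. The A2ko difference was -0.39 for UBE2C and -0.90 for CDC20, so their ratio in A2ko was not that of Control. In C9ko both were called, at 0.39 (SE 0.07, limma adjusted p 0.00545) and 0.33 (SE 0.08, limma adjusted p 0.0190). With median of ratios scaling these were 0.25 and 0.20, and the call of CDC20 was lost with no filter and without Control 3, C9ko 1 or C9ko 2.

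PTTG1, which encodes securin, differed by -0.69, 0.36 and 0.41 in A2ko, A8ko and C9ko. The checkpoint genes BUB1, TTK and MAD2L1 differed by -0.42, -0.37 and -0.33 in A2ko and by 0.43, 0.33 and 0.36 in A8ko. BUB1B, which encodes the checkpoint protein BUBR1, and BUB3, its partner, were the members of this group without a higher A8ko value, at -0.06 and -0.0002. Of the 8 genes of the group, 7 were called higher in C9ko, and MAD2L1 at 0.33 was not (SE 0.10, limma adjusted p 0.0510).

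The chromosomal passenger complex corrects faulty attachments and later guides cytokinesis. AURKB (ENSG00000178999, chromosome 17, 8204733 to 8210600), its kinase, stood at 117.5, 126.7 and 137.9 TPM in Control, at 86.6 in A2ko, at 212.4 in A8ko and, in C9ko 1 and 2, at 167.4 and 164.3. AURKB had the largest A8ko difference of any member, 0.74, and in C9ko rose by 0.38 (SE 0.08, limma adjusted p 0.0124). That call was lost with median of ratios scaling (0.25, limma adjusted p 0.0632), with no filter (limma adjusted p 0.0790) and without C9ko 1 or C9ko 2. BIRC5 (ENSG00000089685, chromosome 17, 78214186 to 78225636), which encodes survivin, stood at 112.2, 94.6 and 97.7 TPM in Control, at 68.0 in A2ko, at 127.4 in A8ko and, in C9ko 1 and 2, at 119.9 and 126.6. Its C9ko libraries were above every Control library, but the difference of 0.28 was not called (SE 0.09, limma adjusted p 0.0508), while it was called with a mean TPM of 5 or more and without Control 1. CDCA8, which encodes borealin, differed by -0.42, 0.35 and 0.26 in A2ko, A8ko and C9ko. INCENP, the scaffold of the complex, differed by only -0.12, 0.20 and 0.14, so its RNA did not keep step with that of its kinase.

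At the centromere, CENPA (ENSG00000115163, chromosome 2, 26764289 to 26801067), the histone H3 variant that marks centromeres, stood at 60.9, 50.2 and 54.9 TPM in Control, at 34.3 in A2ko, at 82.5 in A8ko and, in C9ko 1 and 2, at 63.0 and 68.8. The A8ko difference was 0.57, and that of C9ko, 0.25, was not called (SE 0.09, limma adjusted p 0.0877), but was called without Control 1 (0.32). NDC80 (ENSG00000080986, chromosome 18, 2571511 to 2616635), part of the complex that holds microtubules, stood at 60.4, 57.3 and 59.6 TPM in Control, at 43.02 in A2ko, at 68.9 in A8ko and, in C9ko 1 and 2, at 66.9 and 72.8. Its C9ko difference of 0.24 was called (SE 0.07, limma adjusted p 0.0371). It was lost with median of ratios scaling (0.11, limma adjusted p 0.137), without mitochondrially encoded genes, with no filter, without trend and without any 1 Control or C9ko library. The 3 other subunits of the NDC80 complex were not at equal differences: NUF2 differed by -0.42 in A2ko, 0.55 in A8ko and 0.29 in C9ko, SPC25 by -0.45, 0.27 and 0.07, and SPC24 by -0.06, 0.30 and 0.14. The motor CENPE, the large kinetochore protein CENPF and SKA1 of the microtubule-tracking SKA complex differed by -0.31, -0.60 and -0.23 in A2ko. Only 2 of the 8 genes of this group, NDC80 and NUF2, were called in C9ko, a share near the 22.0% of all genes.

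The spindle genes had the widest range of C9ko differences among the 8 groups. AURKA (ENSG00000087586, chromosome 20, 56369389 to 56392337), the spindle-pole kinase, stood at 183.7, 149.8 and 152.5 TPM in Control, at 107.2 in A2ko, at 233.03 in A8ko and, in C9ko 1 and 2, at 180.8 and 189.7. A8ko was above Control by 0.53, while C9ko overlapped Control and was not called (0.20, SE 0.10, limma adjusted p 0.178), although it was called without Control 1 (0.29). TPX2, the activator of AURKA, differed by -0.66, 0.50 and 0.28 in A2ko, A8ko and C9ko and was called in C9ko (SE 0.06, limma adjusted p 0.0154). NUSAP1 (ENSG00000137804, chromosome 15, 41332694 to 41381050), which binds spindle microtubules, stood at 124.3, 103.6 and 99.4 TPM in Control, at 74.1 in A2ko, at 97.7 in A8ko and, in C9ko 1 and 2, at 111.9 and 109.1. NUSAP1 had the smallest C9ko difference of the members, 0.02 (SE 0.10, limma adjusted p 0.875), and its sign turned after scaling by the median of ratios, to -0.11.

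KIF15 (ENSG00000163808, chromosome 3, 44761717 to 44873376), a motor that helps keep the spindle bipolar, stood at 4.41, 4.38 and 5.08 TPM in Control, at 3.43 in A2ko, at 5.26 in A8ko and, in C9ko 1 and 2, at 10.8 and 10.01. KIF15 had the largest C9ko rise of any member, 1.02 (SE 0.10, limma adjusted p 0.000529), against 0.16 in A8ko. KIF11, the main motor of spindle bipolarity, differed by -0.49, 0.12 and 0.18 and was not called (limma adjusted p 0.0892). HMMR and CKAP2L, which were singled out after their values were seen, had A2ko differences of -0.82 and -0.84, and both were called in C9ko at 0.41 and 0.45. The other spindle genes, KIF2C, KIF18A, DLGAP5 and ASPM, ran from -0.70 to -0.38 in A2ko and from 0.18 to 0.42 in A8ko.

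The midzone and cytokinesis genes finish division. ANLN (ENSG00000011426, chromosome 7, 36389806 to 36453791), the scaffold anillin of the contractile ring, stood at 109.7, 107.96 and 113.1 TPM in Control, at 89.6 in A2ko, at 172.7 in A8ko and, in C9ko 1 and 2, at 167.8 and 173.8. ANLN was the member with large differences in both A8ko, 0.64, and C9ko, 0.63 (SE 0.06, limma adjusted p 0.000439). RACGAP1 (ENSG00000161800, chromosome 12, 49976923 to 50033136), a subunit of the centralspindlin complex, stood at 87.4, 78.8 and 92.3 TPM in Control, at 65.7 in A2ko, at 101.4 in A8ko and, in C9ko 1 and 2, at 91.97 and 92.5. C9ko overlapped Control (0.10, SE 0.08, limma adjusted p 0.377), and scaling by the median of ratios turned the sign to -0.031. KIF23, the motor subunit of centralspindlin, was called in C9ko at 0.53 (SE 0.06, limma adjusted p 0.00107), so the paired subunits were not called alike.

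PRC1 (ENSG00000198901, chromosome 15, 90966038 to 90995629), which bundles midzone microtubules, stood at 63.1, 51.5 and 60.5 TPM in Control, at 39.5 in A2ko, at 66.4 in A8ko and, in C9ko 1 and 2, at 101.0 and 82.3. Its C9ko rise was 0.64 (SE 0.12, limma adjusted p 0.00796), which was not called with no filter (limma adjusted p 0.0908), and the C9ko libraries differed from each other. KIF20A, which carries the passenger complex to the midzone, had an A2ko difference of -0.82, while KIF14 and KIF20B differed by -0.22 and -0.17 there. ECT2, the exchange factor that starts the contractile ring, differed by -0.36, 0.29 and 0.38 in A2ko, A8ko and C9ko and was called in C9ko (SE 0.08, limma adjusted p 0.0108).

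**Figure D3:**
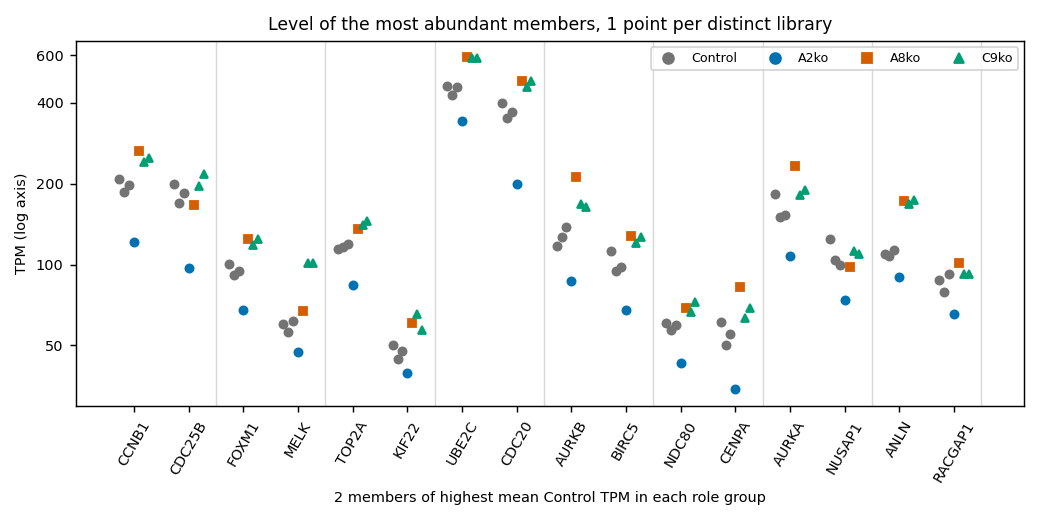
TPM (y axis, log scale) of the 2 members with the highest mean Control level in each role group (x axis), with 1 point per distinct library. A2ko is the lowest library for all 16 genes, from 34.3 TPM for CENPA to 340.6 for UBE2C.

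Several of these genes have close copies or overlap other genes, and how the authors divided reads is not given in the sources used here. The copies found by symbol, such as KIF4B for KIF4A and PTTG2 for PTTG1, reached at most 1.90 TPM in any library. On the same strand, CENPA overlaps SLC35F6 (30.6 to 42.2 TPM), PRC1 overlaps the identifier AC068831.7 (19.8 to 28.9 TPM), KIF15 overlaps TMEM42 (5.51 to 11.4 TPM) and NUSAP1 overlaps AC087721.2 (0 to 26.0 TPM). The values of these 4 members are therefore less certain. On the other strand, FOXM1 overlaps RHNO1 (45.7 to 52.6 TPM), which matters only if reads were counted without strand.

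The members that left the common pattern in A8ko and C9ko were set against their place in the genome. Positions were those of GENCODE release 29 on GRCh38, the genome build that the submitters name as hg38. Of the 78894 identifiers, 57342 had a position there, and only these could count as neighbours. For each member, the median difference of the 40 nearest tested genes that are not members was taken. The 5 members on chromosome 15, a group formed after the values were seen, had neighbours at -0.30 (CCNB2), -0.30 (PRC1), -0.28 (NUSAP1), -0.22 (KIF23) and -0.07 (BUB1B) in A8ko. Less these neighbours, the A8ko differences were -0.01, 0.49, 0.13, 0.29 and 0.01 in the same order. The 3 chromosome 15 members that were lower in A8ko were thus within 0.01 of the genes around them or less low than these. CDC25B on chromosome 20 was lower in A8ko, at -0.14, than neighbours at 0.04.

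In C9ko the same was seen for the largest rises. The neighbours of KIF15 on chromosome 3 were at 0.83 and those of MELK on chromosome 9 at 0.53, which leaves 0.19 for KIF15 and 0.23 for MELK, near the other members. The neighbours of CDC25B were at 0.45, above its own 0.16. PRC1 (0.62) and ANLN (0.45) kept large differences from their neighbours. For all 54 members less their neighbours, the medians of A2ko, A8ko and C9ko were -0.59, 0.26 and 0.20. In the 42 members outside chromosomes 3, 9, 15 and 20, the medians were -0.44, 0.33 and 0.29, and 26 of the 42 were called higher in C9ko, against 22.0% of all genes. The part of the neighbourhood in these values was not tested further.

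**Figure D4:**
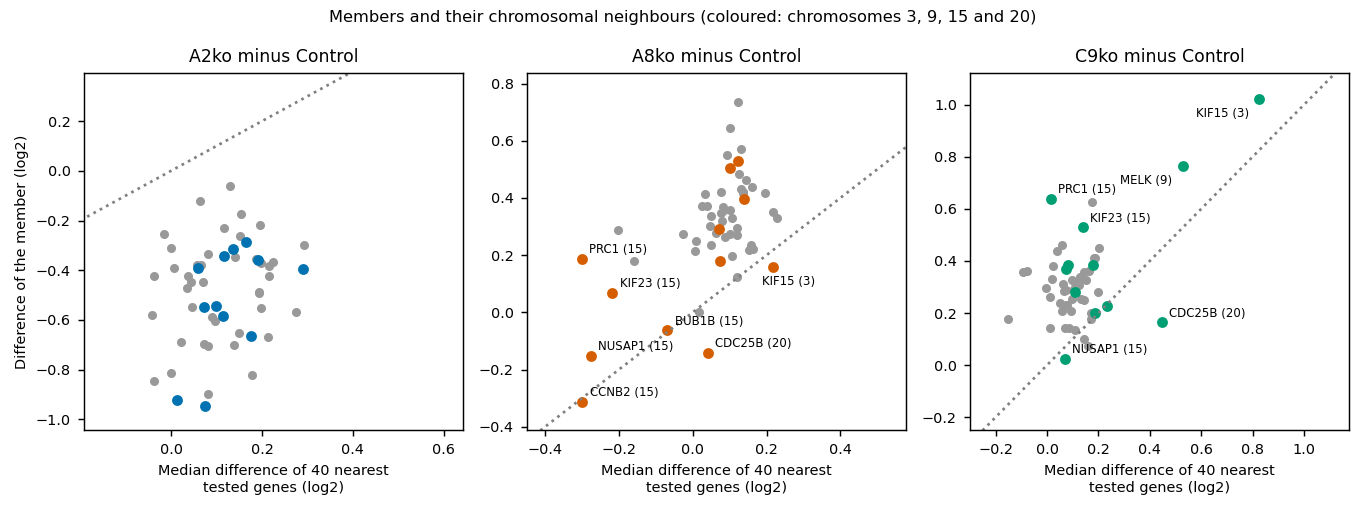
Difference of each member from Control (y axis, log2) against the median difference of its 40 nearest tested genes (x axis, log2), for A2ko, A8ko and C9ko, with members on chromosomes 3, 9, 15 and 20 coloured, the chromosome in parentheses and a dotted line where both are equal. CCNB2 in A8ko lies on the line, KIF15 and MELK in C9ko lie 0.19 and 0.23 above it, and all A2ko points lie below it.

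The A2ko difference varied with the level of the gene. Across the 54 members, Pearson's r between the Control level and the A2ko difference was -0.454 and Spearman's rho -0.450. For A8ko r was 0.03 and rho 0.14, and for C9ko r was -0.04 and rho 0.19. This is a description across genes that share the same libraries. The Control level also enters each difference with the opposite sign, and log2(TPM + 1) understates differences of weakly expressed genes. The part of both in these correlations was not tested. By role, the A2ko medians ran from -0.69 for the entry genes to -0.33 for the midzone and cytokinesis genes, and the C9ko medians from 0.22 for the centromere and kinetochore genes to 0.36 for the entry genes.

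Other mitosis genes, 105 in 6 lists of which all were tested, were set beside the members. Their median differences were -0.18, 0.28 and 0.21 for A2ko, A8ko and C9ko, and 38 of the 105 were called higher and 0 lower in C9ko, against 22.0% and 7.42% of all genes. The shares of the APC/C list, the further kinetochore genes and the further entry and exit regulators were near or below that of all genes. By list, called higher were 9 of 17 genes of condensin and cohesin, which shape and hold chromatids. For APC/C, a list of core subunits that also holds FZR1 and UBE2S, it was 2 of 16. The counts were 7 of 28 further kinetochore genes, 12 of 20 further spindle and cytokinesis genes, 4 of 14 further entry and exit regulators and 4 of 10 genes of the DREAM and MYB-MuvB complexes. In A2ko the regulators of entry and exit had a median of -0.48, whereas the APC/C list stood at -0.15 and the DREAM and MYB-MuvB genes at 0.10. The largest called rises were CDC25A, a phosphatase of CDK complexes, at 1.38 (SE 0.07, limma adjusted p 4.03e-05) and SGO1, a protector of cohesin, at 1.12 (SE 0.12, limma adjusted p 0.000676), both on chromosome 3, and no gene of these lists was called lower.

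The DNA replication and G1/S genes, which act earlier in the cycle, were measured beside them. The 37 genes had medians of -0.15, 0.33 and 0.19 for A2ko, A8ko and C9ko, against -0.44, 0.31 and 0.29 for the mitosis members. In A2ko 25 of the 37 lay below every Control library, against 53 of the 54 members and 26.3% of all genes. In C9ko 16 of the 37 were called higher and 0 lower, beside 22.0% and 7.42% of all genes, led by PCNA, the replication clamp, at 0.79 (SE 0.10, limma adjusted p 0.00182) and RRM2, a subunit of ribonucleotide reductase, at 0.64 (SE 0.08, limma adjusted p 0.00128). PCNA stood at 332.8, 269.9 and 282.4 TPM in Control, at 248.03 in A2ko, at 304.0 in A8ko and, in C9ko 1 and 2, at 483.9 and 534.3, whereas RRM2 stood at 120.7, 108.0 and 118.9 TPM in Control, at 100.1 in A2ko, at 200.3 in A8ko and, in C9ko 1 and 2, at 172.3 and 189.3. PCNA lies on chromosome 20 (5114953 to 5126626), as do the members CDC25B, TPX2, UBE2C and AURKA. The neighbours of these members were at 0.45, 0.11, 0.18 and 0.19 in C9ko, and those of PCNA were not measured. The difference between the lists was not tested.

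**Figure D5:**
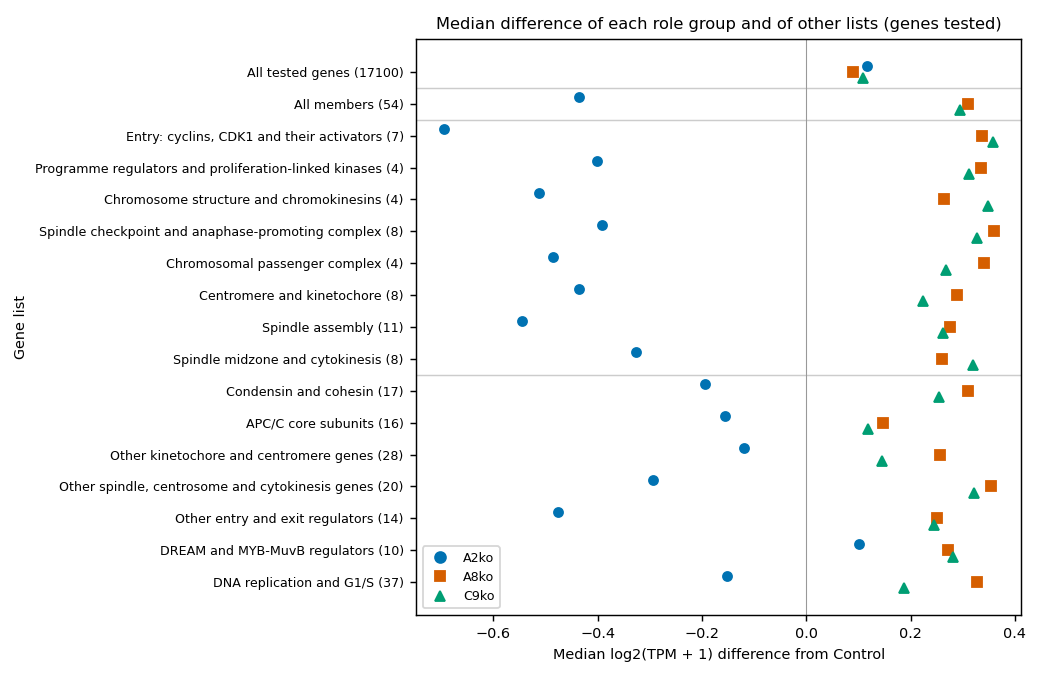
Median log2(TPM + 1) difference from Control (x axis) of all tested genes, all members, the 8 role groups and 7 other lists (y axis, genes tested in parentheses) in A2ko, A8ko and C9ko. All 8 role groups are below 0 in A2ko, from -0.69 to -0.33, and the DREAM and MYB-MuvB list is the 1 gene list above 0 there, at 0.10, near all tested genes at 0.12.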

How the data were processed

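The authors deposited 1 table per sample with TPM per Ensembl gene. The submitters' processing notes name hg38. The aligner, quantification tool, annotation release and use of strand are not given in the sources used here. Symbols came from a table of gene identifiers. Positions came from GENCODE 29. Files with identical values counted as 1 library.

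Values were analysed as log2(TPM + 1), which understates differences of weakly expressed genes. The C9ko test was a limma contrast (version 3.58.1, R 4.3.3) of C9ko minus Control in a model of the 7 libraries in 4 groups, with a trended prior. P-values of the 17100 genes were adjusted together by Benjamini-Hochberg. The test of all knockouts took 1 mean per knockout group, against the 3 Control libraries. For A2ko and A8ko, members outside the range of the Control libraries were counted, also with a step of 0.5 log2 units. The fits were tested on simulated data in which each changed gene moved by the same amount in every knockout. That setting does not cover knockouts that move in opposite directions, as seen here for the members.

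The members and lists were chosen with earlier results of these data known. Members named with every value are, by rule, the 2 of highest Control level per role group and up to 3 largest differences in each direction per knockout. Genes singled out otherwise were chosen after their values were seen. Alternatives were another pseudocount, filter or scaling, left-out libraries, a replicate block and subtraction of neighbouring genes.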

Additional observations from a re-analysis of the deposited data

Results flagged for a closer look

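A2ko lay below Control, and A8ko and C9ko above it, for most members, with the same 3 Control libraries in each difference. The member medians of the knockouts spanned 0.75 log2 units. The members below, from the 19 given with every value, had every library of one knockout below all Control libraries and every library of another above them. The 19 were chosen for level and for size of difference, so their number says nothing of the other members. The gap between the highest and the lowest knockout difference was 1.36 for KIF15, 1.32 for CCNB2, 1.28 for AURKB, 1.27 for CDC20, 1.24 for CENPA and 1.19 for PRC1. It was 1.11 for CCNB1, 1.11 for AURKA, 1.08 for MELK, 0.94 for ANLN, 0.90 for BIRC5 and 0.86 for FOXM1. The smallest gaps were 0.79 for UBE2C, 0.77 for TOP2A, 0.69 for NDC80, 0.62 for RACGAP1 and 0.62 for KIF22. The 2 others, CDC25B and NUSAP1, had no knockout above all Control libraries. The difference between knockouts was not tested for any of them.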

How the results depend on the processing

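No alternative turned the direction of a median. Scaling by the median of ratios moved the member medians of A2ko, A8ko and C9ko to -0.56, 0.21 and 0.16, the members counted in A2ko and A8ko to 35 and 2, and those called in C9ko to 19. Of all genes, 3579 in A2ko and 3068 in A8ko were then counted in either direction. Among all genes called in C9ko, 74.8% were higher as deposited and 54.6% after this scaling. Without mitochondrially encoded genes the median was 0.24 in A8ko and 0.20 in C9ko. In A8ko 3 members were then counted, beside 3327 of all genes counted in either direction. Less the 40 nearest genes, the medians were -0.59, 0.26 and 0.20 in A2ko, A8ko and C9ko. With no filter on low values 20 members were called in C9ko, beside 3511 of all genes called in either direction. At a step of 1 log2 unit 0 members were counted in A2ko and 0 in A8ko, and at any size outside the Control range, a setting chosen after seeing the data like the one without chromosomes 3, 9, 15 and 20, 53 in A2ko (all lower) and 53 in A8ko (49 higher and 4 lower). Leaving out 1 Control library at a time gave 25 to 31 called members in C9ko, beside 3833 to 4174 of all genes called in either direction. Without C9ko 1 or C9ko 2 the member median was 0.31 or 0.28, and a lone C9ko library is assumed to vary like the Control libraries. Without A2ko, 18 members were called in all knockouts, and leaving out any Control or C9ko library left that count at 0. The fit without A2ko drops the knockout in which all members were lower. With the replicate number as a block, 12 members were called in C9ko, beside 3248 of the 17100 genes called in either direction. The calls of CCNB1, CCNB2, FOXM1, TOP2A, KIF22, UBE2C, CDC20 and NDC80 were lost. The deviations of same-numbered Control and C9ko libraries correlated at -0.05 and -0.01 across genes. The deviations of the 2 C9ko libraries mirror each other, so this cannot decide whether the number pairs libraries. The sign of NUSAP1 in C9ko turned to -0.11 with median of ratios scaling, -0.075 without mitochondrially encoded genes, -0.0088 without Control 2, -0.039 without Control 3 and -0.039 with the block (without 1 library it ran from -0.039 to 0.12), and that of RACGAP1 to -0.031 with median of ratios scaling. The cause was not tested. All members were far above the TPM minimum, but without depth no counting error can be given.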
